A study of Mus musculus with 6 samples.

Results

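Complement genes were followed in the testes of Dazap1 mutant and wild-type mice. The genes were C3, C4b, C1qa, C1qb, C1qc, C2, Cfb, Cfd and C3ar1, 9 genes of the 15207 that had at least 3 probe sets on the array. They were found by name: every probe set of the exon array whose annotation carried the symbol of a single gene, or a synonym of it, equal to one of these names. This gave 125 of the 209279 probe sets with a single symbol. The level of a gene was the median log2 value of its probe sets on an array. Fn adult testes came from adult mice homozygous for the floxed-with-neo (Fn) allele of Dazap1, and 3 arrays were run. The Wt P21 group was 3 arrays of wild-type testes taken 21 days after birth. All mice were of mixed C57BL/6 and 129 strain, and the arrays were hybridised with total RNA of whole testes. DAZAP1 is an RNA-binding protein, and its Fn form carries an inserted segment between its RNA-binding domains. By the study's account, most Fn homozygotes die around birth, and survivors are growth retarded with small testes in which post-meiotic germ cells are missing. Genotype and age change at once between these groups, and their effects cannot be told apart.

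Complement is a cascade of plasma and tissue proteins that tags cells and debris for removal. In the classical pathway C1q, built of A, B and C chains, binds its target. The protease C1r then activates the protease C1s, which cleaves C4 and C2. In the alternative pathway factor D (Cfd) cleaves factor B (Cfb). Both routes make an enzyme that cleaves C3, the central component, and a small fragment released from C3 acts on the receptor C3ar1. Liver makes most of the complement in plasma, while macrophages are a main source of C1q in tissues, and membrane-bound inhibitors keep the cascade off host cells.

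The promoter windows of C3, of C3ar1 and of Cfd are shown because C3 had the largest rise among these genes, C3ar1 encodes the receptor for its fragment, and Cfd was the member whose level was not higher in Fn adult testes. Each runs from 250 bases before the annotated start of the gene to 50 bases after it and was taken from RefSeq (build GRCm38.p6), where 5 of the 9 genes had an entry. Capitals mark matches, on either strand, to short motifs that were searched by their letters.

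C3 promoter, chr17:57228087-57228386, strand -: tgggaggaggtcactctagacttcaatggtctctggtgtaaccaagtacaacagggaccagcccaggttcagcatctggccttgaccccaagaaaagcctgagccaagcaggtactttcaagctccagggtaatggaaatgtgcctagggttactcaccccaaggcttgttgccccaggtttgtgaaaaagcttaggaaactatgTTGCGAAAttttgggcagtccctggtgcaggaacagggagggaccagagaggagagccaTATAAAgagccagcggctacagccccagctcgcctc
C3ar1 promoter, chr6:122856108-122856407, strand -: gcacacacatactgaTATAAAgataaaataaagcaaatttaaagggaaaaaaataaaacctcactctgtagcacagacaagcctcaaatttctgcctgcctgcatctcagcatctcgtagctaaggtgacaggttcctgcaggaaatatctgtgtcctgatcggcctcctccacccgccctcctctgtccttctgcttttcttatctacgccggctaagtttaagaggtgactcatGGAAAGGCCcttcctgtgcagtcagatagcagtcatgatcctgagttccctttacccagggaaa
Cfd promoter, chr10:79890603-79890902, strand +: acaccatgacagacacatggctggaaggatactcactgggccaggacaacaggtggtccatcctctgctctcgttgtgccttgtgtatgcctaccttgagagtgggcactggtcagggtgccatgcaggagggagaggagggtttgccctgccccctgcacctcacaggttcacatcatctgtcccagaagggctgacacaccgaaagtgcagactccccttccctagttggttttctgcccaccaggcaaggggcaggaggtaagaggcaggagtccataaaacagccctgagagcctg

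In the C3 window the capitals are a C/EBP motif (TTGCNNAA) and a TATA motif (TATAAA), which are held by 10.8% and 13.6% of 32544 promoter windows of the same length. They begin at -45 and 15 relative to the annotated start, so this TATA motif lies after the start. The window of C3ar1 holds a TATA motif at -235 and, at -14, a match to the NF-kB motif GGNNTTTCC, held by 5.83% of windows. The Cfd window held none of the 8 motifs searched. The others were PU.1 (GAGGAAG, 13.4% of windows), an interferon response element (GAAANNGAA, 8.53%), a STAT site (TTCNNNGAA, 8.33%), SF-1 (CAAGGTCA, 1.53%) and an androgen receptor site (TGTTCT, 18.9%). None of the marked matches overlapped another. A match here is a run of letters and no measure of binding, and no array value bears on these windows directly.

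Over all genes, limma called 1227 higher and 139 lower in Fn adult testes at an adjusted p under 0.05, which is 8.07% and 0.914% of those tested. Every Fn adult array lay above every Wt P21 array for 25.6% of genes. The mean was higher in Fn adult testes for 8931 of the 15207 genes, the background for counts of higher means below. The calls leaned towards higher values less after other scalings, with 826 higher and 452 lower after quantile normalization, and 702 higher and 629 lower with each array centred on its median. The median log2 difference over all genes was 0.07 as deposited, -0.05 under the first of these scalings and -0.10 under the second. Array medians were 9.05 to 9.10 for Fn adult and 8.76 to 9.05 for Wt P21 testes, and Wt P21 gene levels were more spread, with a median SD of 0.21 against 0.11 in Fn adult testes. Dazap1 had 0 probe sets of its symbol alone, so the genotype labels were not checked against its level. The label of testis was checked with Sycp3, a protein of the meiotic chromosome axis, whose mean level was 11.74 in Fn adult and 11.59 in Wt P21 testes. The other 5 spermatocyte genes of the list had lower means in Fn adult testes, and 2 of them fell, Piwil1 by 0.50 and Ybx2 by 0.59 on the log2 scale (adjusted p = 0.0462 and 0.0413).

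The question put to the members was which parts of complement differed in level between the groups. In Fn adult testes 4 of the 9 genes rose, C3, C2, C4b and C1qa, and none fell, where 8.07% of all genes rose and 0.914% fell. Of the other 5, C1qb, C1qc, C3ar1 and Cfb had higher means in Fn adult testes and Cfd a lower mean, and none of these passed the threshold. The median difference of the 9 genes was 0.41 on the log2 scale, beside 0.07 over all genes. Every Fn adult array lay above every Wt P21 array in 7 of the 9, beside 25.6% of all genes, the exceptions being Cfb and Cfd. All differences below are Fn adult minus Wt P21 on the log2 scale, with an adjusted p from limma over all genes, and folds are ratios of the deposited values, whose background is unknown. With 3 arrays in a group, the number of arrays sets the precision.

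**Figure D1:**
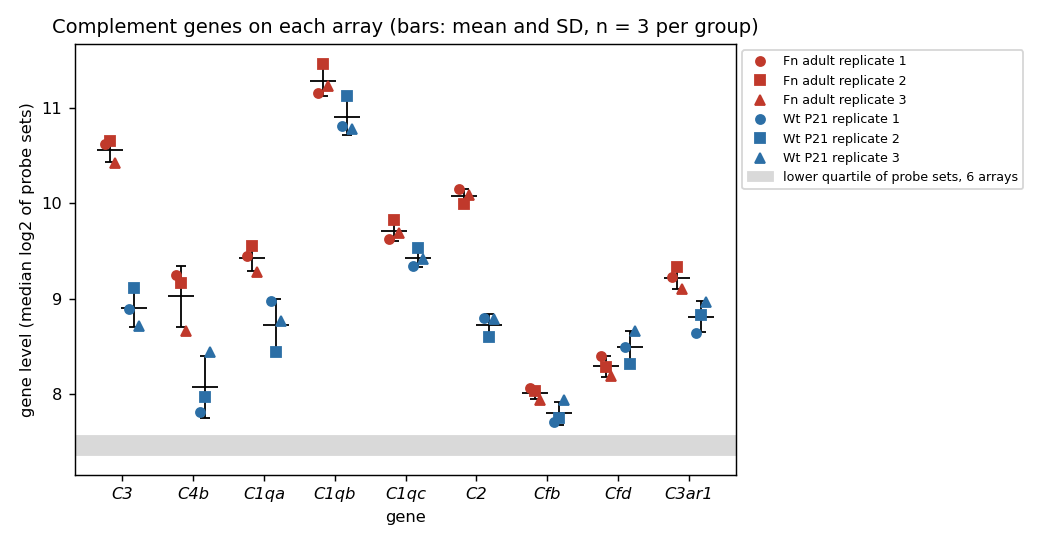
Gene level (median over the probe sets, log2) on each of the 6 arrays, with Fn adult left of Wt P21 for each gene, bars for the mean and SD (n = 3 per group) and a grey band for the arrays' lower quartiles (7.36 to 7.56). The groups stand clearly apart for C3 and C2, whose means differ by 1.66 and 1.35, and overlap for Cfb and Cfd.

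C3 is the component on which all pathways meet. Its level was 10.63, 10.65 and 10.42 in Fn adult testes, against 8.89, 9.11 and 8.71 in Wt P21 testes. The lowest Fn adult array stood well above the highest Wt P21 array, and the gap between the groups was several times the spread within either, with SDs of 0.13 and 0.20 (n = 3 each). C3 was 3.17-fold higher, a difference of 1.66 (SE 0.15, 95% confidence interval 1.33 to 2.00, adjusted p = 5.84e-04). By size it ranked 76 of 15207 genes. Its call held under each of 14 other settings, with differences from 1.50 (arrays centred on their medians) to 1.77. Measured against the median of all genes, the difference was 1.60 as deposited and 1.56 after quantile normalization.

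Read probe set by probe set, 41 of the 43 probe sets of C3 rose and none fell, where 3.78% of all probe sets rose and 0.402% fell. Their differences ran from 0.01 to 2.30 with a median of 1.69, and the middle part of them, between the quartiles, lay from 1.38 to 1.84. Of the 41, 13 differed by 1 to 1.5, 26 by 1.5 to 2 and 2 by more than 2. Their means ran from 8.76 to 12.22 in Fn adult and from 7.13 to 10.57 in Wt P21 testes. Every Fn adult array exceeded every Wt P21 array in 42 of the 43, beside 21.5% of all probe sets.

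The largest difference was that of probe set 5126394, with values of 10.86, 10.98 and 10.61 in Fn adult testes and 8.61, 8.69 and 8.25 in Wt P21 testes. It differed by 2.30 (SE 0.18, adjusted p = 0.00102 over all probe sets). Probe set 5242194 followed with 10.94, 11.02 and 10.73 in Fn adult testes and 8.80, 9.22 and 8.53 in Wt P21 testes, a difference of 2.05. At the low end of those that rose stood probe set 4836556, with 9.04, 9.02 and 8.72 in Fn adult testes against 7.62, 8.11 and 8.03 in Wt P21 testes, a difference of 1.01 (adjusted p = 0.0278). Even there no Wt P21 array reached the Fn adult values.

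The 2 probe sets that did not pass stood apart from the others. Probe set 4441439 had 10.30, 10.29 and 10.28 in Fn adult testes, against 10.29, 10.61 and 9.94 in Wt P21 testes. The groups overlapped fully, and the difference was 0.01 (95% confidence interval -0.43 to 0.44, adjusted p = 0.989). Its upper limit lies below the difference of each of the other probe sets of C3. Probe set 4738818 had 11.20, 11.17 and 11.10 in Fn adult testes and 11.01, 10.29 and 10.42 in Wt P21 testes, a difference of 0.59 (adjusted p = 0.151). Here the groups did not overlap, but Wt P21 replicate 1 came close to the Fn adult arrays. The annotation used here does not pair probe sets with exons.

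**Figure D2:**
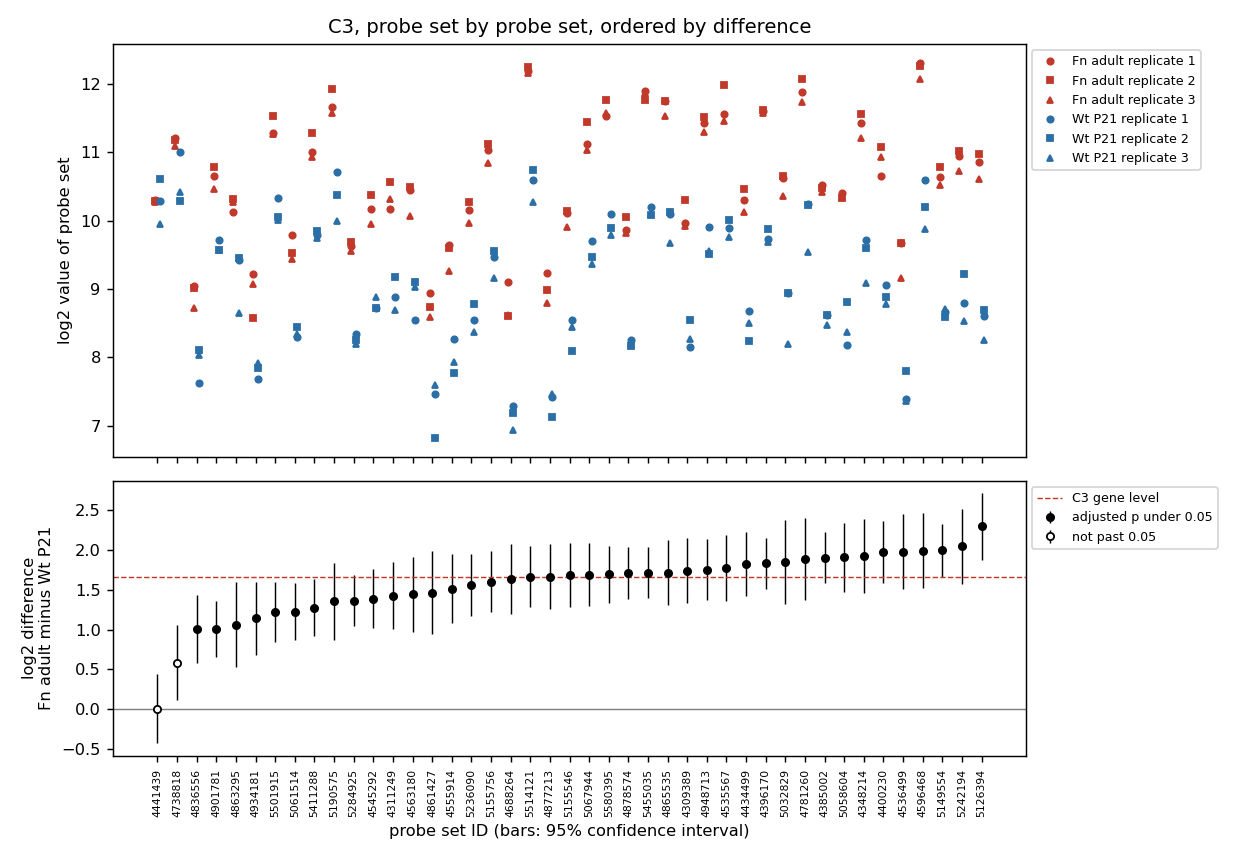
The 43 probe sets of C3, ordered by difference, with the log2 value on each of the 6 arrays above and the log2 difference (Fn adult minus Wt P21, bars for the 95% confidence interval) below, filled where the adjusted p is under 0.05. The dashed line is the difference in gene level, 1.66, around which most probe sets lie, while probe set 4441439 lies at 0.01 and probe set 4738818 at 0.59.

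Whether these probe sets departed from the rest of the gene was asked with the splicing index, the log2 value of a probe set less its gene's level on that array. No probe set of C3 passed (limma over 207513 probe sets, of which 0.00771% passed). An unadjusted p under 0.05 was found for 12 of the 43, a larger share than the 9.56% of all probe sets. The lowest index difference was that of probe set 4441439, at -1.66 with an adjusted p of 0.0564. It passed in 4 of the 12 other settings. These were quantile normalization, eBayes with trend and robust, gene levels made as means, and brighter features only. It did not pass in any of the 6 settings that left out 1 array (adjusted p = 0.424 without Fn adult replicate 1). With the replicate number as a block its adjusted p was 0.489. Probe set 4738818 had an index difference of -1.08 with an adjusted p of 0.280. The second lowest adjusted p in C3, 0.174, was that of probe set 5126394, whose index difference was above 0, at 0.63. Among the 82 probe sets of the other 8 genes none passed either, with a lowest adjusted p of 0.0641. Of these 82, 20 had an unadjusted p under 0.05, also a larger share than the 9.56% of all probe sets.

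C2, the protease that joins C4 in the enzyme that cleaves C3, had levels of 10.15, 9.99 and 10.08 in Fn adult testes and 8.79, 8.59 and 8.79 in Wt P21 testes. The groups were far apart and each was tight, with SDs of 0.08 and 0.11. It was 2.55-fold higher, a difference of 1.35 (SE 0.12, adjusted p = 7.21e-04). All 21 of its probe sets rose, by 0.98 to 2.03, with adjusted p values of 0.00105 to 0.0381 over all probe sets. Its call held in each of 14 other settings.

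Cfb, the counterpart of C2 in the alternative pathway, lies next to it on chromosome 17, with no protein-coding gene between them in the RefSeq list. Its levels were 8.06, 8.03 and 7.93 in Fn adult testes and 7.70, 7.75 and 7.93 in Wt P21 testes. Wt P21 replicate 3 reached the lowest Fn adult array. The difference of 0.21 did not pass (SE 0.12, 95% confidence interval -0.07 to 0.49, adjusted p = 0.311), and the upper limit of its interval lies below the lower limit of that of C2, 1.07. The difference between the changes of these genes was not tested. Of its 22 probe sets 2 rose, none fell, and 18 had a difference above 0.

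C4b encodes complement component C4 and lies on the same stretch of chromosome 17. Its levels were 9.25, 9.17 and 8.66 in Fn adult testes and 7.81, 7.96 and 8.44 in Wt P21 testes. The groups came close at Fn adult replicate 3 and Wt P21 replicate 3, the lowest and highest of their groups, so the spread was larger than for C3 or C2, with SDs of 0.32 and 0.33. C4b was 1.93-fold higher, a difference of 0.95 (SE 0.21, adjusted p = 0.0304). The call was lost without Fn adult replicate 1 or 2 or without Wt P21 replicate 1 or 2, with adjusted p values of 0.147, 0.113, 0.0819 and 0.0952.

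All 15 probe sets of C4b had higher means in Fn adult testes, and 3 of them passed. Their differences ran from 0.09 to 2.69. The highest, that of probe set 4795236, rested on values of 7.63, 7.83 and 6.85 in Fn adult testes against 3.62, 4.02 and 6.59 in Wt P21 testes, and it did not pass (adjusted p = 0.0732). Wt P21 replicate 3 was the highest of its group in 13 of the 15 probe sets. C4a is a near-identical copy of C4b, and 31 further probe sets carried both symbols. Their median level was 9.78, 9.47 and 9.27 in Fn adult testes and 8.12, 8.32 and 8.64 in Wt P21 testes. All 31 had higher means in Fn adult testes and 15 rose, by up to 2.54, so the share of each copy in the signal is uncertain. With these probe sets added, a setting chosen after the data were seen, C4b differed by 1.27 (adjusted p = 0.00888).

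The RefSeq list places 5 further protein-coding genes between C4b and C2 besides Cfb. All 5 were tested, and 1 rose. That gene, Cyp21a1, named after its value was seen, encodes steroid 21-hydroxylase, has a near-identical pseudogene, and had a difference of 3.13. The other 4 lay between -0.30 and 0.37 and did not pass. Whether position on the chromosome bears on the levels of C4b and C2 was not tested.

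**Figure D3:**
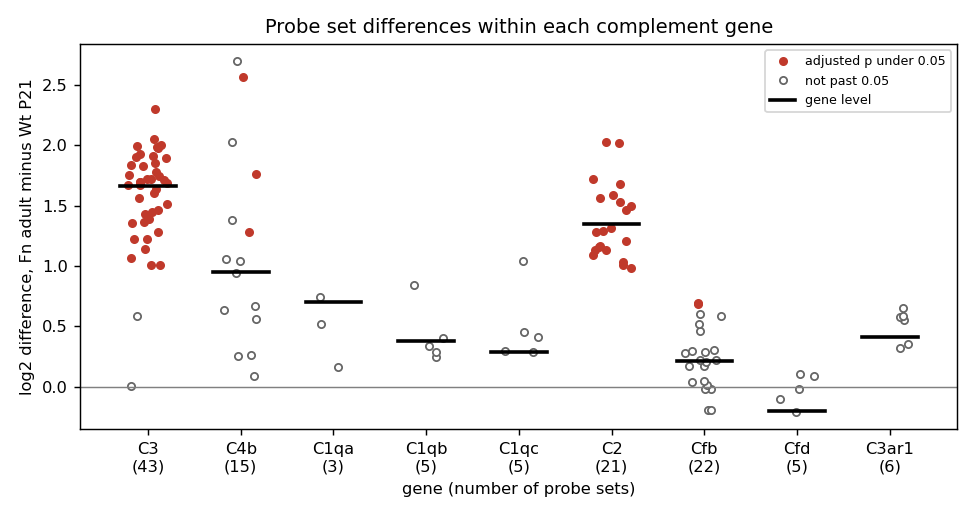
Log2 difference (Fn adult minus Wt P21) of each of the 125 probe sets, by gene, filled where the adjusted p over all probe sets is under 0.05, with a bar for the difference in gene level. C2 has all 21 of its probe sets between 0.98 and 2.03, those of C4b spread from 0.09 to 2.69, and those of Cfd lie around 0.

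The A, B and C chains of C1q are encoded side by side on chromosome 4, with no other protein-coding gene among them. C1qa had levels of 9.44, 9.55 and 9.28 in Fn adult testes and 8.98, 8.44 and 8.76 in Wt P21 testes. It was 1.62-fold higher, a difference of 0.70 (SE 0.16, adjusted p = 0.0357), with no overlap between the groups. This level is the median of only 3 probe sets, none of which passed singly, with differences of 0.16 to 0.74. As their mean the difference was 0.47 and the call was lost (adjusted p = 0.0708). It was also lost after quantile normalization (0.0560), with arrays centred on their medians (0.0569), without Wt P21 replicate 2 (0.0755) and without each Fn adult replicate (0.150, 0.131 and 0.0905).

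C1qb had levels of 11.16, 11.47 and 11.23 in Fn adult testes and 10.81, 11.12 and 10.79 in Wt P21 testes. The lowest Fn adult array lay just above the highest Wt P21 array. The difference of 0.38 (SE 0.15) did not pass (adjusted p = 0.146). C1qc had levels of 9.62, 9.83 and 9.69 in Fn adult testes and 9.34, 9.53 and 9.42 in Wt P21 testes, a difference of 0.29 (SE 0.12, adjusted p = 0.187). Again the groups stood next to each other without overlap. All 13 probe sets of the 3 chains had higher means in Fn adult testes, by 0.16 to 1.04, and none passed singly. Read as the mean of the probe sets, C1qb and C1qc rose by 0.42 and 0.50 (adjusted p = 0.0328 and 0.0311), so which of the chains pass depends on how the gene level is made.

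C3ar1, the receptor for the small fragment of C3, is found on macrophages and other myeloid cells. Its levels were 9.23, 9.33 and 9.10 in Fn adult testes and 8.64, 8.82 and 8.96 in Wt P21 testes. The groups did not overlap, and Wt P21 replicate 3 came nearest to the Fn adult arrays. The difference of 0.41 (SE 0.14) did not pass (adjusted p = 0.0982). It passed without Wt P21 replicate 3 (0.49, adjusted p = 0.0363) and when its level was a mean of probe sets (0.51, adjusted p = 0.0310). All 6 probe sets had higher means in Fn adult testes, by 0.32 to 0.65, and none passed.

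Cfd, also called adipsin, is the protease that starts the alternative pathway and is made chiefly by fat cells. Its levels were 8.40, 8.28 and 8.18 in Fn adult testes and 8.49, 8.31 and 8.66 in Wt P21 testes. The groups overlapped, and the highest value was that of Wt P21 replicate 3. The difference was -0.20 (SE 0.14, 95% confidence interval -0.51 to 0.12, adjusted p = 0.397). Of its 5 probe sets 2 had higher means in Fn adult testes, none passed, and all lay between -0.21 and 0.11. A further 2 probe sets carried another symbol beside Cfd and were not used.

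On that array 6 of 7 fat cell markers were also at the highest level of their group. The exception was Plin1, a coat protein of fat droplets, which was lowest there, with Wt P21 levels of 9.12, 9.06 and 8.72 for replicates 1, 2 and 3. Fabp4, a fatty acid carrier of fat cells, had Wt P21 levels of 7.31, 6.43 and 9.17 for replicates 1, 2 and 3, and the hormone adiponectin (Adipoq) had 7.54, 6.61 and 8.59. The mean level of the 7 fat cell genes ran from 7.32 to 7.59 in Fn adult and from 7.35 to 8.36 in Wt P21 testes, and 0 of them passed the threshold. Without Wt P21 replicate 3 the difference of Cfd was -0.11 (adjusted p = 0.561). The part of fat cell RNA in the level of Cfd was not tested.

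Other complement genes were read from a list of 42 ordered by role, of which 33 had a gene level. Of these 8 rose, none fell and 25 did not pass. The list had a median difference of 0.13, beside 0.07 over all genes, and 24.2% of it rose beside 8.07% of all genes. In 18 of the 33 both group means lay under the arrays' lower quartile, and these include most of the lectin and terminal pathways.

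Of the proteases that work with C1q, C1ra rose. It had levels of 10.26, 10.16 and 10.42 in Fn adult testes and 9.27, 9.19 and 9.46 in Wt P21 testes, and it was 1.96-fold higher (difference 0.97, SE 0.13, adjusted p = 0.00506). The groups were separated by far more than their spread. C1s1 and C1s2 did not pass. None of 6 genes of the lectin pathway passed, with differences from -0.23 to 0.13, and the one farthest from 0 was the collectin Colec10 (-0.23, adjusted p = 0.366). Of 6 genes of the terminal pathway, whose products form the pore, none passed, with differences from -0.34 to 0.19. The farthest from 0 was C8b (-0.34, adjusted p = 0.224).

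Among 7 receptors 3 rose. Vsig4, a receptor of macrophages for fragments of C3, had levels of 9.87, 9.69 and 9.56 in Fn adult testes and 7.49, 7.88 and 8.64 in Wt P21 testes. It was 3.26-fold higher (difference 1.71, SE 0.26, adjusted p = 0.00772), a change near that of C3, though Wt P21 replicate 3 stood above the rest of its group. The integrin chains Itgax and Itgam, which form complement receptors on myeloid cells, rose by 0.71 and 0.45 (adjusted p = 0.0236 and 0.0492). Both were under the lower quartile in Fn adult and in Wt P21 testes, and folds are left out for that reason. Itgax and Itgam lost the call when read from brighter probe sets only, with differences of 0.28 and 0.24, and when arrays were centred on their medians, with 0.54 and 0.29. Itgam also lost it after quantile normalization, with genes of at least 1 probe set tested (adjusted p = 0.0550), when any 1 of the Fn adult arrays was left out and without Wt P21 replicate 1 or 2, and Itgax without Fn adult replicate 1 or 3 or Wt P21 replicate 2.

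Of 11 regulators 4 rose. Serping1, the inhibitor of C1r and C1s, had levels of 12.01, 11.96 and 11.98 in Fn adult testes and 11.25, 11.12 and 10.85 in Wt P21 testes, and was 1.88-fold higher (difference 0.91, SE 0.14, adjusted p = 0.00735). The Fn adult arrays were almost level, and all Wt P21 arrays lay below them. Cr1l, known as Crry, which blocks the C3-cleaving enzyme on mouse cells, was 1.67-fold higher (0.74, SE 0.15, adjusted p = 0.0197). Clu, a secreted chaperone that binds the terminal complex and is abundant in Sertoli cells, was 1.55-fold higher (0.63, SE 0.15, adjusted p = 0.0373). Cr1l lost the call when any 1 of the Fn adult arrays was left out (adjusted p of 0.0794 to 0.0899). Clu lost it in the same cases, without Wt P21 replicate 2 and with centred arrays (0.0952 to 0.166). Cd46, which in the mouse is largely a protein of the sperm acrosome, rose by 1.06 (SE 0.16, adjusted p = 0.00628) under the lower quartile in both groups. The other 7 did not pass, with differences from -0.42 (Cd55b, adjusted p = 0.341) to 0.56 (Cd59a, adjusted p = 0.144). Of the 11 regulators 8 had a difference above 0.

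**Figure D4:**
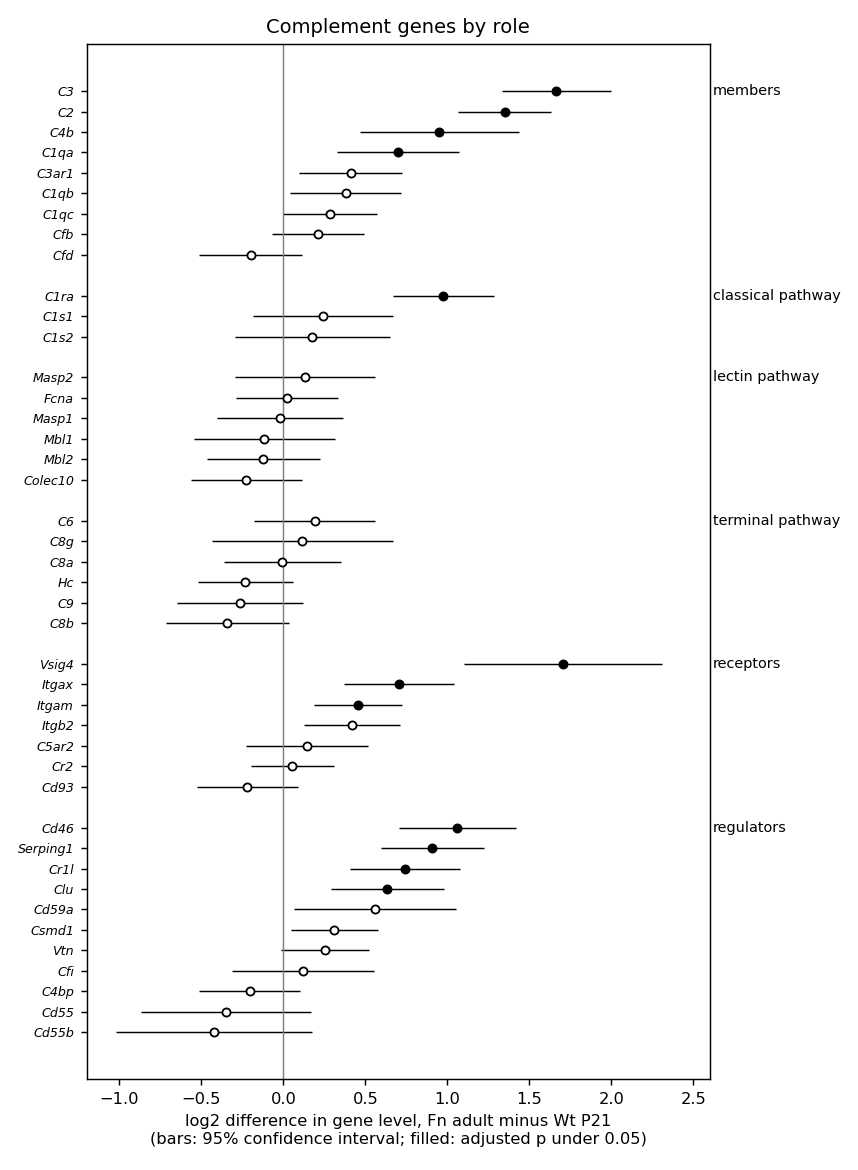
Log2 difference in gene level (Fn adult minus Wt P21) of the 9 genes followed here and of the 33 other complement genes by role, with bars for the 95% confidence interval and filled points for an adjusted p under 0.05. C3 and Vsig4 have the largest differences, 1.66 and 1.71, while genes of the lectin and terminal pathways lie on both sides of 0 with none filled.

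The arrays were read from whole testes, in which fewer cells of a type and less RNA per cell cannot be told apart. Markers of macrophages, a source of C1q, stood higher in Fn adult testes in all 12 genes of the list. Of these 7 rose (58.3%, beside 8.07% of all genes). Cd14, Cd163 and Ptprc lay under the lower quartile in both groups, and Cd163 and Ptprc are among the 7. The median difference of the 12 markers was 0.72, and their mean level ran from 8.91 to 9.01 in Fn adult and from 8.21 to 8.34 in Wt P21 testes. Lysozyme (Lyz2) rose by 1.32 and the growth factor receptor Csf1r by 0.82, while Laptm5 and Aif1 did not pass (0.14 and 0.22). The differences of the macrophage markers ran from 0.14 to 1.32, beside 0.29 to 0.70 for the C1q chains, 0.41 for C3ar1, 1.35 for C2 and 1.66 for C3, and Vsig4, which macrophages also make, differed by 1.71. Leydig cell genes, markers of the steroid-making cells, rose in 6 of 6 tested, with a median difference of 1.89 and a range of 0.80 to 3.85. Of 7 Sertoli cell genes 1 rose, transferrin (Trf, by 1.08), and 1 fell, anti-Müllerian hormone (Amh, by 0.68 on the log2 scale). Spermatocyte genes had a median difference of -0.34, and 2 of 6 fell. None of 5 spermatid genes passed, with a median difference of 0.18 and a range of -0.16 to 1.09. Among them Acrv1 had Wt P21 levels of 7.16, 7.44 and 9.58 for replicates 1, 2 and 3 (SD 1.33). The others had SDs of 0.02 to 0.32 in that group. The 5 endothelium and 5 peritubular myoid cell genes did not pass either, with medians of 0.23 and -0.07. The part of any of these cell types in the levels of the complement genes was not tested.

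Liver and neutrophil lists had mean levels from 6.40 to 7.35 on every array. None of their genes rose in Fn adult testes, and Ahsg, a plasma protein of the liver, fell by 0.86 on the log2 scale (adjusted p = 0.0135). Albumin (Alb), the defining product of hepatocytes, averaged 5.86 in Fn adult and 6.11 in Wt P21 testes. Crisp1, a secreted protein of the epididymis, the duct attached to the testis, was at 4.03, 4.70 and 4.28 in Fn adult testes and 10.26, 8.74 and 4.30 in Wt P21 testes. It was thus high on Wt P21 replicates 1 and 2 and low on the other 4 arrays. The other 4 measured epididymis genes averaged under the lower quartile in both groups. On Wt P21 replicate 3, where Crisp1 was low, C4b, C3ar1, Cfb, Cfd and Vsig4 were at the highest level of their group and C3 and C1qb at the lowest. The spermatid gene Acrv1 was also highest of its group on that array, at 9.58. The part of epididymis tissue or of spermatids in the levels of these complement genes was not tested.

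**Figure D5:**
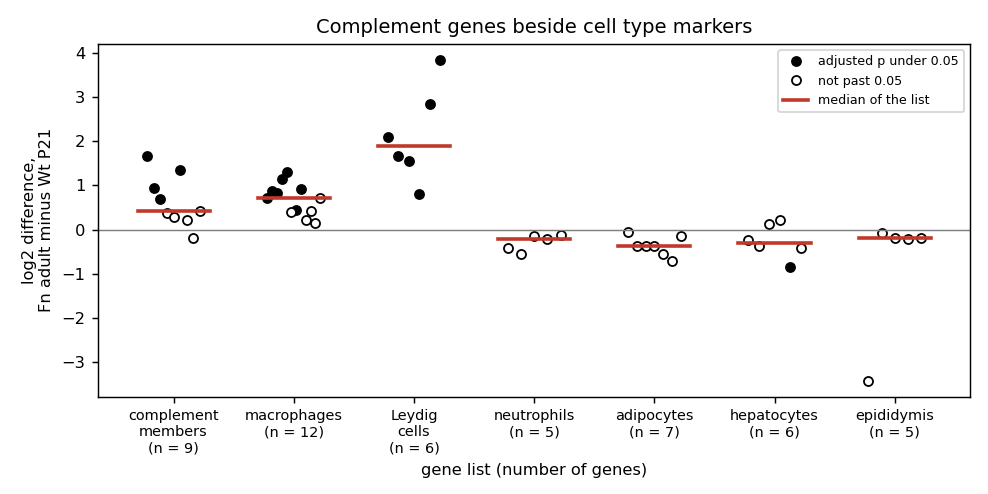
Log2 difference in gene level (Fn adult minus Wt P21) of the 9 complement genes beside markers of cell types and tissues, each point 1 gene, filled where the adjusted p is under 0.05, with a bar for the median of the list. Medians are 0.41 for the complement genes, 0.72 for macrophages and 1.89 for Leydig cells, and below 0 for neutrophil, fat cell, liver and epididymis genes, where Crisp1 lies at -3.43.

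Within the groups, some arrays stood low or high in several of the 9 genes, which was counted and not tested. Fn adult replicate 3 was the lowest of its group in 6 of the 9 and the highest in 0, and replicate 2 the highest in 5. In the Wt P21 group replicate 3 was the highest in 4, among them C4b and C3ar1, and the lowest in 2, C3 and C1qb. Over all genes, the level pattern most like that of C3 was sought by the root mean square difference between log2 levels over the 6 arrays, each gene centred on its own mean. Centred levels keep the difference between the groups, so this measure partly repeats the size of that difference. The nearest were Prnd (0.13), Timp1 (0.15), Ociad2 (0.16), Adgrg2 (0.16) and Shisa4 (0.17). Prnd encodes doppel, a relative of the prion protein made in the testis, and Timp1 an inhibitor of matrix metalloproteases. Of the other 8 members C2 was nearest to C3, at 0.25 and rank 35, followed by C4b at 0.47 and rank 373. Of the 33 listed complement genes 4 were nearer to C3 than C4b was, Cd46 (0.35), Serping1 (0.40), Vsig4 (0.42) and C1ra (0.42).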

How the data were processed

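Affymetrix mouse exon arrays of 3 Fn adult and 3 Wt P21 testes were analysed. Each deposited value is a log2 level of 1 probe set on 1 array. The study's methods name the EASANA system of GenoSplice Technology, and the submitters' processing notes name build mm8. Background correction and normalization are not given in the sources used here, so the values were used as deposited. Of 229581 probe sets, 209279 carried 1 gene symbol, 4446 several and 15856 none, and only the first were used. Of 16380 array symbols, 14190 were current in a RefSeq list (GRCm38.p6), 2145 were updated through a synonym and 45 were unmatched.

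Gene level was the median over probe sets, for the 15207 genes with at least 3. Genes, probe sets and splicing indices were each fitted with lmFit and eBayes (limma 3.58.1, R 4.3.3), two-sided, with Benjamini-Hochberg adjustment over all features and a threshold of 0.05. "Rose" and "fell" mean past this threshold. The fit was also run on simulated gene levels with equal spread in both groups and no shift between arrays. These arrays differ in both respects, so that run does not bear on their effects. Promoter windows were searched on both strands.

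The members, the lists and the tests were chosen with earlier results of these data known. Named were the 9 members, every listed complement gene past the threshold, and the farthest from 0 of each role where none passed. Also named were the 5 genes most like C3, markers beside a member's value, and a few listed complement genes that did not pass. Alternatives were quantile normalization, centring on array medians, leaving out each array, the replicate block, eBayes with trend and robust, the mean of probe sets, and filters on dim or sparsely covered features.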

Additional observations from a re-analysis of the deposited data

How the results depend on the processing

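C3, C2, C1ra, Serping1, Cd46 and Vsig4 passed in every setting in which they were tested, and all 9 members kept the sign of their difference. The groups share replicate numbers, but same-numbered arrays did not all deviate together (r of 0.236, -0.108 and -0.017 across genes, which are not independent), and not every array correlated best with its own number. With the replicate number as a block, 1016 genes passed in place of 1366 and 2 members rose, the calls of C4b, C1qa, Itgam and Clu being lost (adjusted p of 0.0598, 0.0588, 0.0997 and 0.0533). Leaving out 1 array gave 2 to 5 members, 31 to 41 probe sets of C3, 41 to 78 probe sets of all members, 4 to 9 genes of the pathway list higher and 0 to 1 lower. Over all genes it gave 325 to 2821 calls, 306 to 2455 higher and 19 to 366 lower, with the most without Wt P21 replicate 3 and the fewest without Fn adult replicate 1. Of the 41 probe sets of C3 that rose, 31 did so in each of 11 other settings.

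The pathway list gave 5 genes with arrays centred on their medians and 5 among brighter genes only. C8b fell with the mean of the probe sets and among brighter probe sets, which made 1 gene lower in each. The splicing index of C3 gave 1 call with eBayes trend and robust, with the mean of the probe sets, among brighter features and after quantile normalization. The mean of the probe sets gave 2228 genes, 1999 higher and 229 lower. Centring gave 702 higher and 629 lower, and quantile normalization 452 lower. Probe set 4441439 of C3 had differences of -0.16 with centring, -0.13 after quantile normalization and -0.16 to 0.17 when single arrays were left out. The cause of these changes was not tested.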
